A study of Mus musculus with 9 samples.

Results

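The 9 complement genes described here are *C1qa*, *C1qb*, *C1qc*, *C3*, *C4b*, *C6*, *Cfp*, *C3ar1* and *C5ar1*. They were chosen by name as components of the complement cascade and the receptors for its cleavage products. Earlier results of these data were known when they were chosen. All 9 had a row among the 13708 genes of the deposited table, and all 9 passed the filter on low values. The study sorted macrophages from E15.5 mouse fetal livers as CD45+ F4/80+ cells with low or intermediate CD11b, and measured them by bulk RNA-seq. According to the study, this sort took in cells with high and with low Tim4, a Kupffer cell marker. It reports Tim4-low cells in Mrc1Cre Xpr1fl/fl embryos, beside the Tim4-high cells that controls had. There were 5 Mrc1Cre Xpr1fl/fl samples and 4 Xpr1fl/fl controls. All samples share the genotype Xpr1fl/fl, that is, *loxP* sites in both copies of *Xpr1*, which encodes the phosphate exporter XPR1. The Mrc1Cre samples also carry a Cre and eYFP construct in the *Mrc1* locus, which is read in CD206+ macrophages and in liver sinusoidal endothelial cells. Per the study's methods, strains were on a C57BL/6JRj background and Cre lines were generally kept heterozygous. Whether a sample came from 1 embryo or from several is not given in the sources used here, so p-values measure only the spread between these samples, which may be technical.

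Complement is a set of plasma proteins that cleave and activate each other on a target surface. C1q, built from A, B and C chains, starts the classical pathway and also binds dying cells. C3 and C4 are cleaved and then bound to the target, properdin (*Cfp*) stabilizes the C3-cleaving enzyme of the alternative pathway, and C6 is part of the membrane attack complex. C3AR1 and C5AR1 are receptors on myeloid cells for the small fragments C3a and C5a. Hepatocytes secrete most of the complement proteins in plasma, whereas C1q comes mainly from macrophages.

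*Xpr1* had 1073.7 to 1285.3 normalized counts in Mrc1Cre Xpr1fl/fl samples and 1780.9 to 2239.2 in controls. Counts are per gene, so transcripts that lack the floxed exon can still count. *Mrc1*, which carries the construct, had 5923.1 to 9094.8 against 22143.6 to 28348.4. Normalized counts are estimated read counts per gene that the authors divided by DESeq2 normalization factors. Their total per sample lay between 26942921 and 28309443, which the normalization sets, so that absolute depth is unknown. The macrophage markers *Adgre1* and *Csf1r* were high in every sample, at 42249.8 to 52418.8 and 71872.1 to 91177.9 normalized counts. Transcripts of other cells were present as well. Summed over each list, those of erythroid, hepatocyte and endothelial genes did not overlap between genotypes, and those of neutrophil and monocyte genes did. The summed levels of 14 erythroid genes were 92928.4 to 306874.9 in Mrc1Cre Xpr1fl/fl samples and 403535.2 to 645274.3 in controls. For 15 hepatocyte genes they were 36637.4 to 47420.4 and 62040.5 to 108254.3, for 12 neutrophil genes 5152.9 to 18910.4 and 9251.2 to 55812.9, and for 10 endothelial genes 6748.5 to 8809.1 and 11073 to 15116.4. Of 10 macrophage genes, 1 was higher and 4 lower past the threshold used below, of 10 monocyte genes 3 and 4, and of 8 mast cell and lymphoid genes 0 and 7. The higher macrophage gene was *Ptprc* (log2 fold change 0.85). The lower ones were *Cd163* (−3.12), *Lyz2* (−1.11), *Timd4* (−0.85) and *Aif1* (−0.32), and *Adgre1* and *Csf1r* were among those that did not pass. Of the neutrophil genes 5 and of the endothelial genes 9 were lower and 0 higher. Over all genes tested, 21.6% were lower and 21.5% higher past that threshold. The column names of the table begin with 1 of 3 dates, whose meaning is not given. Mrc1Cre Xpr1fl/fl sample 5 shares the earliest date with controls 1 to 3, control 4 has the middle date, and Mrc1Cre Xpr1fl/fl samples 1 to 4 have the latest.

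Of the 9 complement genes, *C1qa*, *C1qc*, *C6* and *Cfp* were lower and *C3ar1* and *C5ar1* were higher in Mrc1Cre Xpr1fl/fl macrophages (limma on log2(normalized count + 1), adjusted p under 0.05 over all 13594 genes tested). Among all genes tested, 43.1% passed this threshold, 21.6% lower and 21.5% higher. *C1qb*, *C3* and *C4b* did not pass. The median log2 fold change (log2FC, Mrc1Cre Xpr1fl/fl against Xpr1fl/fl) of the 9 genes was −0.12, and it was 0.00 over all genes tested. The genotypes did not overlap for *C1qa*, *C1qc*, *C6*, *C3ar1* and *C5ar1*, which is 5 of 9, and for 34.1% of all genes. In a date-adjusted fit, which carries the date as an added factor and so compares Mrc1Cre Xpr1fl/fl sample 5 with controls 1 to 3, *C1qa* and *C6* stayed lower and *C3ar1* and *C5ar1* stayed higher, whereas *C1qc* and *Cfp* no longer passed. In that fit 8.78% of all genes passed.

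**Figure D1:**
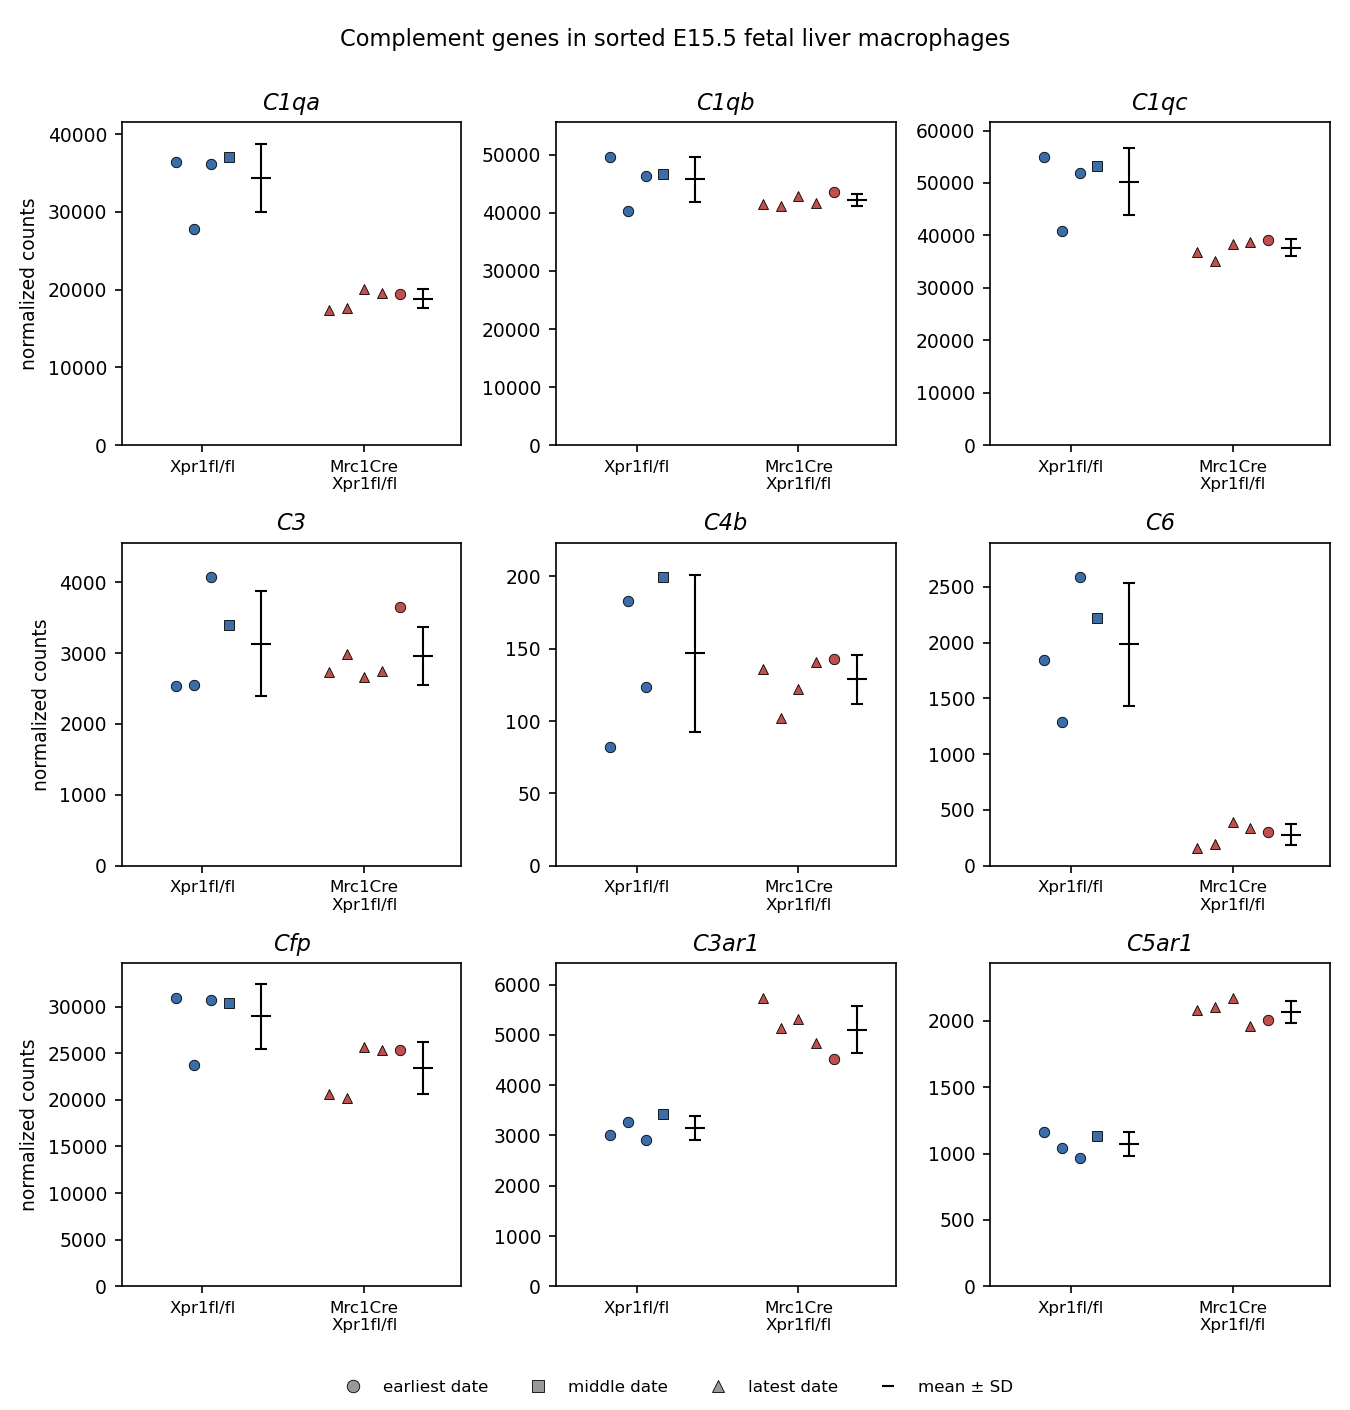
Normalized counts (vertical axis, from 0) of the 9 complement genes in each Xpr1fl/fl (n = 4, blue) and Mrc1Cre Xpr1fl/fl (n = 5, red) sample, with the date in the column name as the symbol and the mean ± SD as the bar. *C1qa* and *C6* are lower and *C3ar1* and *C5ar1* are higher in every Mrc1Cre Xpr1fl/fl sample than in any control, while the genotypes overlap for *C1qb*, *C3*, *C4b* and *Cfp*.

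The C1q genes lie next to each other on chromosome 4 (GRCm39, minus strand), within 20153 bp from 136606009 to 136626161. *C1qb* (ENSMUSG00000036905) spans 136606009 to 136613511, *C1qc* (ENSMUSG00000036896) 136616466 to 136620376 and *C1qa* (ENSMUSG00000036887) 136623223 to 136626161. Their promoters are shown because the 3 genes share a locus and encode chains of the same protein, with different fold changes. Each sequence is the 250 bases before the start of the canonical transcript in the GENCODE annotation, read 5′ to 3′ on the strand of the gene from GRCm39. Capitals mark GAGGAA, the core of the site of the myeloid factor PU.1, and TGCTGA, part of the site of MAF factors, on either strand.
C1qa promoter, chr4:136626162-136626411: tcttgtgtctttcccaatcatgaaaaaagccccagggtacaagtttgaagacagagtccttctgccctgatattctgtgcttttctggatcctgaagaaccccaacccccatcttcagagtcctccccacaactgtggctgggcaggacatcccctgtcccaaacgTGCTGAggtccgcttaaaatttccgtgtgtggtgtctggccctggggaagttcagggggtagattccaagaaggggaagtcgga
C1qc promoter, chr4:136620377-136620626: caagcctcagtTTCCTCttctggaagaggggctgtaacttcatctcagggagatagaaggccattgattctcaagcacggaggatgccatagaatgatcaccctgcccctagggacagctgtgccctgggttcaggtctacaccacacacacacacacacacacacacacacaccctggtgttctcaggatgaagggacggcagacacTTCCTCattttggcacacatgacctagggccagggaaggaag
C1qb promoter, chr4:136613512-136613761: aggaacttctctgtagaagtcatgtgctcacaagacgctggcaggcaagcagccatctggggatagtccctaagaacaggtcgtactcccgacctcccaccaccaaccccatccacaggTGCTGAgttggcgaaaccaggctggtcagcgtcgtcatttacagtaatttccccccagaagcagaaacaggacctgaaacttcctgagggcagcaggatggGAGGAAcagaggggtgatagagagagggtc
The MAF letters occurred once in the promoters of *C1qa* and *C1qb* and 0 times in that of *C1qc*. The PU.1 letters occurred 1 time in that of *C1qb*, 2 times in that of *C1qc* and 0 times in that of *C1qa*. The letters of an interferon response element, GAAANNGAA, were in none of these 3 windows, which says only that they are not within these 250 bases. An antisense long noncoding RNA, *Gm69251*, overlaps exons of *C1qb* over 61 bp and of *C1qc* over 247 bp, and had no row in the table. Such antisense transcripts, *Gm65552*, *Gm65055* and *Gm61816*, also overlap exons of *C3*, *C4b* and *Cfp* and had no row either. The library kit keeps strand, but whether quantification used it is not given in the sources used here. Over the promoters of all 13698 annotated genes of the table, 23.3% held GAGGAA, 13.2% TGCTGA and 7.37% GAAANNGAA on either strand.

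*C1qa*, which encodes the A chain, had 17403.1, 17605.4, 20072, 19601.7 and 19482.3 normalized counts in Mrc1Cre Xpr1fl/fl samples 1 to 5. In Xpr1fl/fl samples 1 to 4 it had 36395.7, 27854.3, 36135.8 and 37095.7. The highest Mrc1Cre Xpr1fl/fl value lay well below the lowest control, which was sample 2. The means were 18832.9 ± 1234.8 (SD, n = 5) and 34370.4 ± 4362.9 (SD, n = 4), a log2FC of −0.86 (standard error, SE, 0.09, adjusted p = 4.11e-05), or 1.83 times as much in the controls. After date adjustment it was −0.77 (adjusted p = 0.0153). Leaving out any 1 sample kept it between −0.96 and −0.82.

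*C1qc*, for the C chain, had 36786, 35151.4, 38353.2, 38675 and 39199.5 normalized counts in Mrc1Cre Xpr1fl/fl samples 1 to 5. The controls 1 to 4 had 54996.3, 40915.5, 51894.2 and 53305.9. All controls were above all Mrc1Cre Xpr1fl/fl samples, but control 2 only narrowly. This gave a log2FC of −0.41 (SE 0.08, adjusted p = 0.00274). After date adjustment it was −0.32 and no longer passed (adjusted p = 0.203).

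*C1qb*, for the B chain, had 41617.6, 41208.2, 42886.4, 41746.4 and 43687 normalized counts in Mrc1Cre Xpr1fl/fl samples 1 to 5 and 49675.8, 40378.9, 46391.7 and 46786.2 in controls 1 to 4. Control 2 was the lowest of all 9 samples and the other controls were the 3 highest. The log2FC was −0.11 (SE 0.06, adjusted p = 0.174) with a 95% interval of −0.25 to 0.03, which does not reach the change of *C1qa*. *C1qb* passed the threshold without control 2 (−0.17, adjusted p = 0.0267) and after scaling to the 75th percentile of each sample (−0.19, adjusted p = 0.0356).

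The chains therefore stood in different proportions in the genotypes. The ratios below are taken within a sample, so that a scaling factor common to all genes of a sample cancels. Whether the authors' factors were common to all genes is not given in the sources used here. The ratio of *C1qa* to *C1qb* normalized counts was 0.418, 0.427, 0.468, 0.47 and 0.446 in Mrc1Cre Xpr1fl/fl samples 1 to 5. It was 0.733, 0.69, 0.779 and 0.793 in controls 1 to 4. The ratio of *C1qc* to *C1qb* was 0.853 to 0.926 against 1.01 to 1.14, and that of *C1qa* to *C1qc* was 0.473 to 0.523 against 0.662 to 0.696. The genotypes did not overlap in any of these 3 ratios. Control 2, which was low in each C1q gene, was at the lower end of the controls in the ratios to *C1qb* but still above every Mrc1Cre Xpr1fl/fl sample. Mrc1Cre Xpr1fl/fl sample 5, of the same date as controls 1 to 3, lay among the other Mrc1Cre Xpr1fl/fl samples in all 3. No test was run on the ratios, because the genes were picked with earlier results known.

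**Figure D2:**
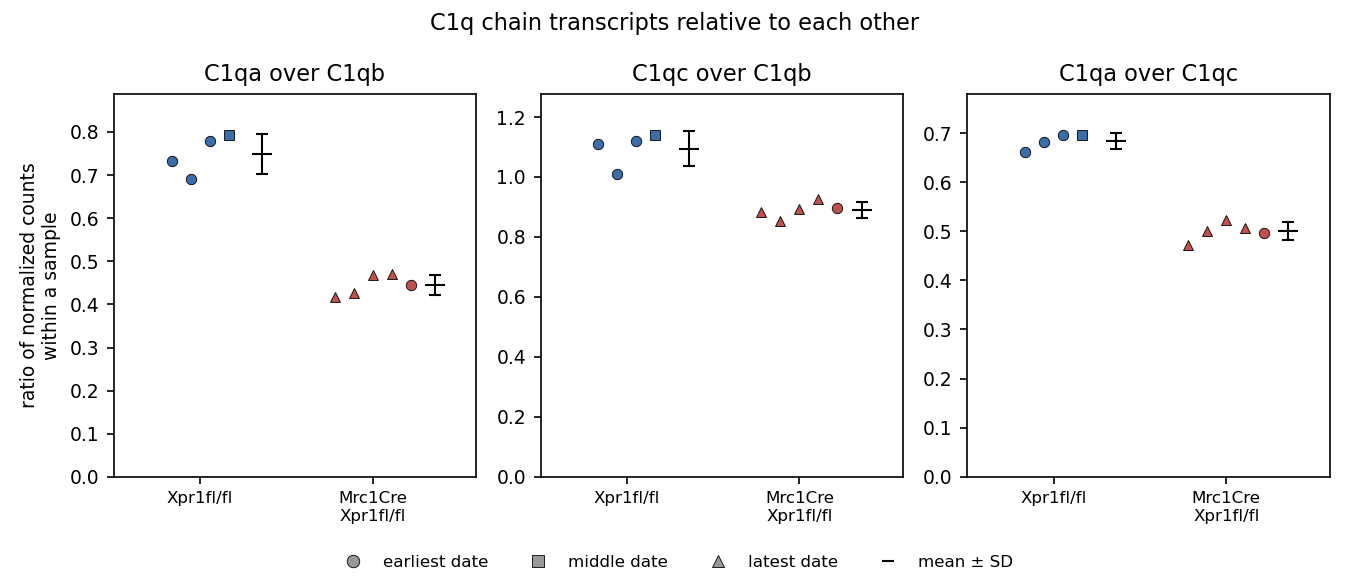
Ratios of normalized counts between the C1q chain genes within each sample (vertical axis, from 0), for Xpr1fl/fl (n = 4, blue) and Mrc1Cre Xpr1fl/fl (n = 5, red), with symbols for the date and bars for the mean ± SD. *C1qa* over *C1qb* lies at 0.418 to 0.47 in Mrc1Cre Xpr1fl/fl samples and at 0.69 to 0.793 in controls.

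Per kilobase of the canonical transcript, the C1q genes were among the most abundant transcripts of these cells. This scale takes the annotated length of that transcript for each gene, and which transcripts were expressed was not examined. In controls, *C1qa* had 31619.5 ± 4013.7 normalized counts per kilobase (SD, n = 4), *C1qc* 27147.9 ± 3439.1 and *C1qb* 18091.7 ± 1542, which are ranks 34, 41 and 81 of 13698 genes. In Mrc1Cre Xpr1fl/fl samples *C1qc* had 20320.2 ± 892.7 (SD, n = 5), *C1qa* 17325.6 ± 1136 and *C1qb* 16678.2 ± 405, at ranks 62, 84 and 89. On this scale the mean of *C1qa* was above that of *C1qc* in controls and below it in Mrc1Cre Xpr1fl/fl samples. This order depends on the lengths used, 1087 bp for *C1qa* and 1852 bp for *C1qc*. In normalized counts *C1qa* was below *C1qc* in every sample of both genotypes. The neighbouring levels of *C1qa* and *C1qc* in controls overlapped over the samples, as did those of *C1qa* and *C1qb* in Mrc1Cre Xpr1fl/fl samples. Such ranges do not use that both genes were measured in the same sample. Within a sample, the ratio of *C1qa* to *C1qc* normalized counts was 0.473 to 0.523 in Mrc1Cre Xpr1fl/fl samples and 0.662 to 0.696 in controls. *Cfp*, at 17640.6 ± 2112.7 (SD, n = 4) in controls, overlapped with *C1qb*. The other members were far lower per kilobase in controls, with *C6* at 659.6 ± 183.5 (SD, n = 4), *C3ar1* at 628.3 ± 47.8, *C3* at 607.7 ± 143.4, *C5ar1* at 422.7 ± 35.7 and *C4b* at 27 ± 10. The levels of *C6*, *C3ar1* and *C3* did not differ beyond their spread. Together the C1q genes took 0.333% to 0.365% of the normalized counts in Mrc1Cre Xpr1fl/fl samples and 0.405% to 0.499% in controls. In bulk samples, fewer cells of a type and less RNA per cell cannot be told apart. Relative to *Csf1r*, which encodes the receptor for the macrophage growth factor CSF-1, *C1qa* was at 0.202 to 0.258 and 0.388 to 0.487 without overlap, whereas *C1qb* was at 0.467 to 0.578 and 0.551 to 0.665 with overlap.

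The genes whose profile over the 9 samples lay nearest to the mean of the C1q genes were *Rnaset2b*, *Optn* and *Tmem86a*, among 11384 genes searched. Their root mean square difference from it was 0.046, 0.0524 and 0.0527 on the log2 scale. *Optn* encodes the autophagy receptor optineurin and *Rnaset2b* a lysosomal RNase, one of a pair of near-identical genes whose reads salmon has to divide.

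*C6* (ENSMUSG00000022181, plus strand of chromosome 15, 4756525 to 4844580) encodes a component of the membrane attack complex. It had the largest change of the 9 genes. It had 161.1, 196.6, 392.4, 337.3 and 305 normalized counts in Mrc1Cre Xpr1fl/fl samples 1 to 5, and 1842.4, 1291.6, 2584.2 and 2217.6 in controls 1 to 4. The lowest control was more than 3 times the highest Mrc1Cre Xpr1fl/fl sample. The means of 278.5 ± 97 (SD, n = 5) and 1984 ± 552.1 (SD, n = 4) were 7.12 times apart, with a log2FC of −2.86 (SE 0.27, adjusted p = 2.6e-05). Only 24 of all genes tested had a lower log2FC. After date adjustment the log2FC was −2.58 (adjusted p = 0.0126). The nearest profiles were those of *Angptl7* (root mean square difference 0.225 on the log2 scale), *Ephx1* (0.304), which encodes an epoxide hydrolase, and *Gsta4* (0.306), which encodes a glutathione transferase.

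Hepatocytes also express *C6*, and the hepatocyte markers fell in the same direction. *Alb*, for albumin, had 10069.4, 6770.4, 7151, 8185.8 and 10199.3 normalized counts in Mrc1Cre Xpr1fl/fl samples 1 to 5 and 14866.5, 14149.8, 16890.3 and 29386 in controls 1 to 4. All 15 hepatocyte genes were lower past the threshold, with a median log2FC of −1.1, and 2 of them passed after date adjustment. Over all genes tested, 21.6% were lower past the threshold. Among the controls, sample 4 had the most *Alb* and sample 3 the most *C6*. Per 1000 normalized counts of *Alb*, *C6* was at 16 to 54.9 in Mrc1Cre Xpr1fl/fl samples and at 75.5 to 153 in controls, so the groups remained apart. On the same scale *Hc*, which encodes C5, was at 9.34 to 13 and 9.11 to 13.4. *Vtn*, which encodes vitronectin, an inhibitor of the membrane attack complex, was at 21 to 25.9 and 21.6 to 26.7. *C6* was thus lower relative to *Alb* in each Mrc1Cre Xpr1fl/fl sample, and *Hc* and *Vtn* overlapped. A gene that fell more than *Alb* can stand apart on this scale whatever its source. The log2FC was −2.86 for *C6* and −1.11 for *Alb*. The part of hepatocyte transcripts in the level of *C6* was not tested.

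**Figure D3:**
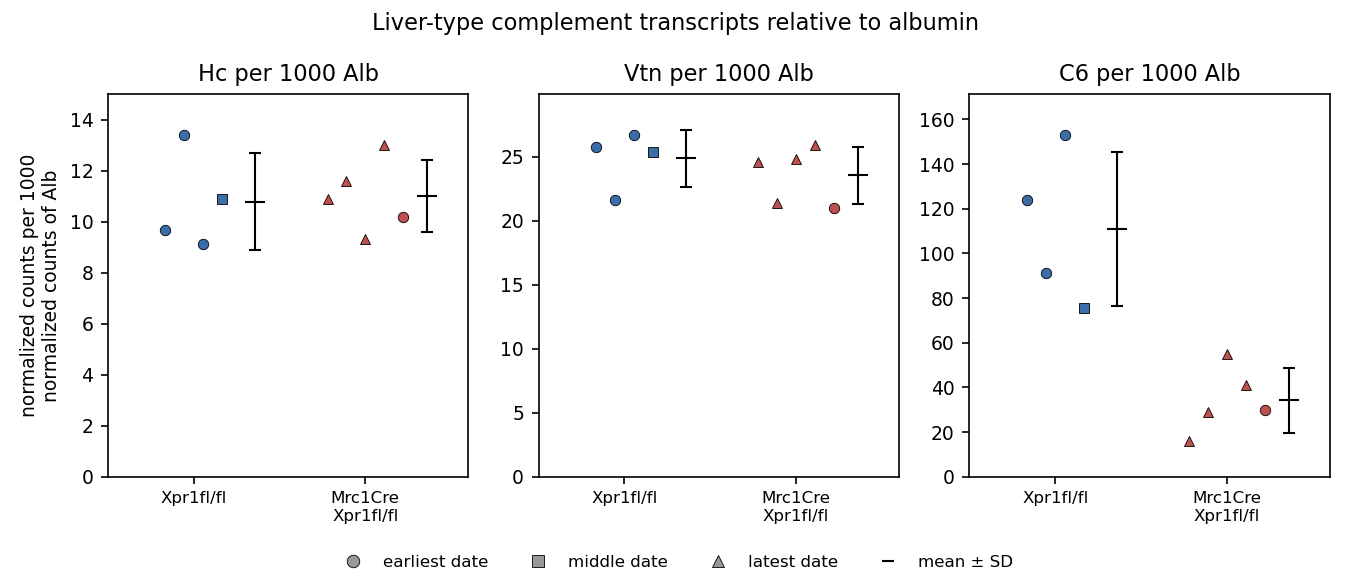
Normalized counts of *Hc*, *Vtn* and *C6* per 1000 normalized counts of *Alb* in each sample (vertical axis, from 0), for Xpr1fl/fl (n = 4, blue) and Mrc1Cre Xpr1fl/fl (n = 5, red), with symbols for the date and bars for the mean ± SD. The genotypes overlap for *Hc* and *Vtn*, and for *C6* every Mrc1Cre Xpr1fl/fl sample (16 to 54.9) is below every control (75.5 to 153).

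*C3* (ENSMUSG00000024164, minus strand of chromosome 17, 57510964 to 57535155) encodes the protein on which the pathways converge. It had 2735.1, 2981.2, 2663.8, 2749.3 and 3654.2 normalized counts in Mrc1Cre Xpr1fl/fl samples 1 to 5 and 2528.6, 2552.2, 4067.2 and 3390 in controls 1 to 4. The lowest and the highest sample were both controls. Its log2FC of −0.06 (SE 0.14, adjusted p = 0.742) had a 95% interval of −0.38 to 0.25. It turned to 0.30 after date adjustment (adjusted p = 0.43) and to 0.07 without control 3 (adjusted p = 0.689). Per 1000 normalized counts of *Alb*, *C3* was at 272 to 440 in Mrc1Cre Xpr1fl/fl samples and at 115 to 241 in controls, without overlap. *Alb* itself was lower in Mrc1Cre Xpr1fl/fl samples, so other genes with little change rise on this scale as well. *C1qb* was at 4130 to 6090 in Mrc1Cre Xpr1fl/fl samples and 1590 to 3340 in controls, also without overlap.

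*C4b* (ENSMUSG00000073418, minus strand of chromosome 17, 34947354 to 34962912) encodes C4 of the classical and lectin pathways and was the least abundant of the 9 genes per kilobase. It had 136.1, 101.9, 121.9, 140.7 and 143.2 normalized counts in Mrc1Cre Xpr1fl/fl samples 1 to 5 and 81.8, 183.1, 123.7 and 199.3 in controls 1 to 4. The controls spread over a wider range that took in all Mrc1Cre Xpr1fl/fl samples. The log2FC was −0.12 (SE 0.24, adjusted p = 0.722) with a 95% interval of −0.64 to 0.41, and it turned to 0.22 after date adjustment (adjusted p = 0.757). *C4a*, a near-identical copy, had no row in the table, and reads of such a pair can be assigned to either gene.

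*Cfp* (ENSMUSG00000001128, minus strand of chromosome X, 20791688 to 20797794) encodes properdin, which myeloid cells make. It had 20629, 20215.4, 25703.7, 25388.6 and 25330.2 normalized counts in Mrc1Cre Xpr1fl/fl samples 1 to 5 and 30915.3, 23759.3, 30749.6 and 30369.1 in controls 1 to 4. Mrc1Cre Xpr1fl/fl samples 3, 4 and 5 lay above control 2 and below the other controls. *Cfp* had a log2FC of −0.30 (SE 0.10, adjusted p = 0.0331). The call was lost after date adjustment (−0.16, adjusted p = 0.621) and without Mrc1Cre Xpr1fl/fl sample 1 or 2 or control 1, 3 or 4 (adjusted p = 0.0772, 0.0756, 0.0866, 0.089 and 0.0765). Neutrophils contain properdin as well, and the genes of the neutrophil list did not all vary alike. *S100a9* had 9513.5, 4000.2, 14013.4 and 636.9 normalized counts in controls 1 to 4, and the genotypes overlapped. *Mpo*, from the same list, had 5253.8, 7719.5, 9596.3 and 5707.1 in these controls. It had 1524.5 to 2193.7 in Mrc1Cre Xpr1fl/fl samples, without overlap. The part of neutrophil transcripts in the level of *Cfp* was not tested. Per kilobase, *Cfp* ranked 86 of 13698 genes in controls and 110 in Mrc1Cre Xpr1fl/fl samples.

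Both anaphylatoxin receptors were higher in Mrc1Cre Xpr1fl/fl macrophages. *C5ar1* (ENSMUSG00000049130, minus strand of chromosome 7, 15980668 to 15993465) encodes the receptor for C5a. It had 2084.3, 2102.8, 2171.9, 1959.3 and 2003.8 normalized counts in Mrc1Cre Xpr1fl/fl samples 1 to 5 and 1161.9, 1039.2, 963.5 and 1133.2 in controls 1 to 4. Each genotype was tight and the gap between them was wide. The means were 2064.4 ± 83.9 (SD, n = 5) and 1074.5 ± 90.7 (SD, n = 4), 1.92 times apart, with a log2FC of 0.94 (SE 0.06, adjusted p = 5.37e-06). It was 0.93 after date adjustment (adjusted p = 0.00221). Among all genes tested, 391 had a higher log2FC. The nearest profiles were those of *Hyou1*, which encodes a chaperone of the endoplasmic reticulum, *Slc39a6*, which encodes a zinc transporter, and *Pou2f2*, which encodes the transcription factor OCT2, with root mean square differences of 0.0878, 0.0909 and 0.096 on the log2 scale.

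*C3ar1* (ENSMUSG00000040552, minus strand of chromosome 6, 122823393 to 122833122) encodes the receptor for C3a. It had 5730.6, 5127.4, 5310.5, 4830.8 and 4520.3 normalized counts in Mrc1Cre Xpr1fl/fl samples 1 to 5 and 3004.3, 3261.1, 2901.3 and 3427.5 in controls 1 to 4. Every Mrc1Cre Xpr1fl/fl sample was above every control, and sample 5 was the lowest of the Mrc1Cre Xpr1fl/fl samples. Its log2FC was 0.70 (SE 0.07, adjusted p = 4.96e-05), and 0.57 after date adjustment (adjusted p = 0.0126). Relative to *Csf1r* within each sample, *C3ar1* was at 0.054 to 0.0703 in Mrc1Cre Xpr1fl/fl samples and at 0.0345 to 0.0454 in controls. *C5ar1* was at 0.0219 to 0.0265 and 0.0115 to 0.0156 on the same scale. The genotypes did not overlap for either gene.

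*C5ar2*, the second receptor for C5a, went the other way, with 285.6, 280.5, 367.3, 337 and 325.9 normalized counts in Mrc1Cre Xpr1fl/fl samples 1 to 5 and 444.7, 397.3, 480.4 and 442.2 in controls 1 to 4. Its log2FC was −0.47 (SE 0.10, adjusted p = 0.00344), and the call was lost after date adjustment (−0.43, adjusted p = 0.182). The ratio of *C5ar1* to *C5ar2* was 5.81 to 7.5 in Mrc1Cre Xpr1fl/fl samples and 2.01 to 2.62 in controls.

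Among the receptors for fragments of C3 left on a surface, the integrin genes were higher and *Vsig4* was lower. *Itgax*, the CD11c chain of complement receptor 4, had 472.6 to 702 normalized counts in Mrc1Cre Xpr1fl/fl samples and 117 to 192.4 in controls, a log2FC of 1.77 (SE 0.16, adjusted p = 2.37e-05). *Itgb2*, the CD18 chain shared by complement receptors 3 and 4, had a log2FC of 0.34 (adjusted p = 0.00686), and it passed after date adjustment too (0.51, adjusted p = 0.0423). *Itgam*, which encodes the CD11b chain used in the sort gate, had a log2FC of 0.42 (adjusted p = 0.0071) with overlap of the genotypes, and did not pass after date adjustment (adjusted p = 0.298). *Vsig4*, the complement receptor of Kupffer cells, had 6.8, 15.8, 17.6, 16 and 10.1 normalized counts in Mrc1Cre Xpr1fl/fl samples 1 to 5 and 367, 240.2, 769.3 and 565.6 in controls 1 to 4. Its log2FC of −5.03 (SE 0.35, adjusted p = 6.21e-06), and −5.20 after date adjustment (adjusted p = 0.00221), was the lowest of the complement genes, and only 3 of all genes tested had a lower log2FC.

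*Calr*, for calreticulin, a chaperone of the endoplasmic reticulum that also binds C1q at the cell surface, was higher, with 60744.1 ± 3544.7 normalized counts (SD, n = 5) against 43709.4 ± 2700.1 (SD, n = 4) in the controls. Its log2FC of 0.47 (adjusted p = 0.000228) was 0.37 after date adjustment (adjusted p = 0.0527). *Scarf1*, a scavenger receptor that binds C1q, was lower, with a log2FC of −1.17 (adjusted p = 0.00404), but did not pass after date adjustment (−0.69, adjusted p = 0.363). *Lrp1*, *C1qbp*, *Cr1l* and *Cd93* did not pass, with log2FCs of −0.02, 0.09, −0.07 and −0.54.

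The wider list of complement genes held 56 genes besides the 9, of which 41 were in the table and tested. Of these, 25 were lower and 5 higher in Mrc1Cre Xpr1fl/fl macrophages, with a median log2FC of −0.93, where 21.6% and 21.5% of all genes tested were lower and higher. After date adjustment 7 were lower and 3 higher, where 4.54% and 4.24% of all genes were. The 5 higher genes were *Cfb*, *Itgax*, *Itgam*, *Itgb2* and *Calr*. Of the 41 genes, 9 had a mean under 50 normalized counts, of which 4 were lower and 0 higher, with log2FCs of −1.37 to −0.42. Many of the lower genes are ones that hepatocytes express. Relative to *Alb*, 23 of the 25 lower genes overlapped between the genotypes, 1 was lower without overlap (*Vsig4*) and 1 was higher without overlap (*C1rl*). *Alb* itself was lower (log2FC −1.11), so a gene that fell by a similar factor can overlap on this scale whatever its source. *C1qa*, *C1qc* and *Fcna*, which macrophages make, overlapped on it as well. The count therefore cannot tell hepatocyte transcripts from others, and the share over all genes was not computed. How much of each fall goes with the lower level of hepatocyte transcripts was not tested.

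**Figure D4:**
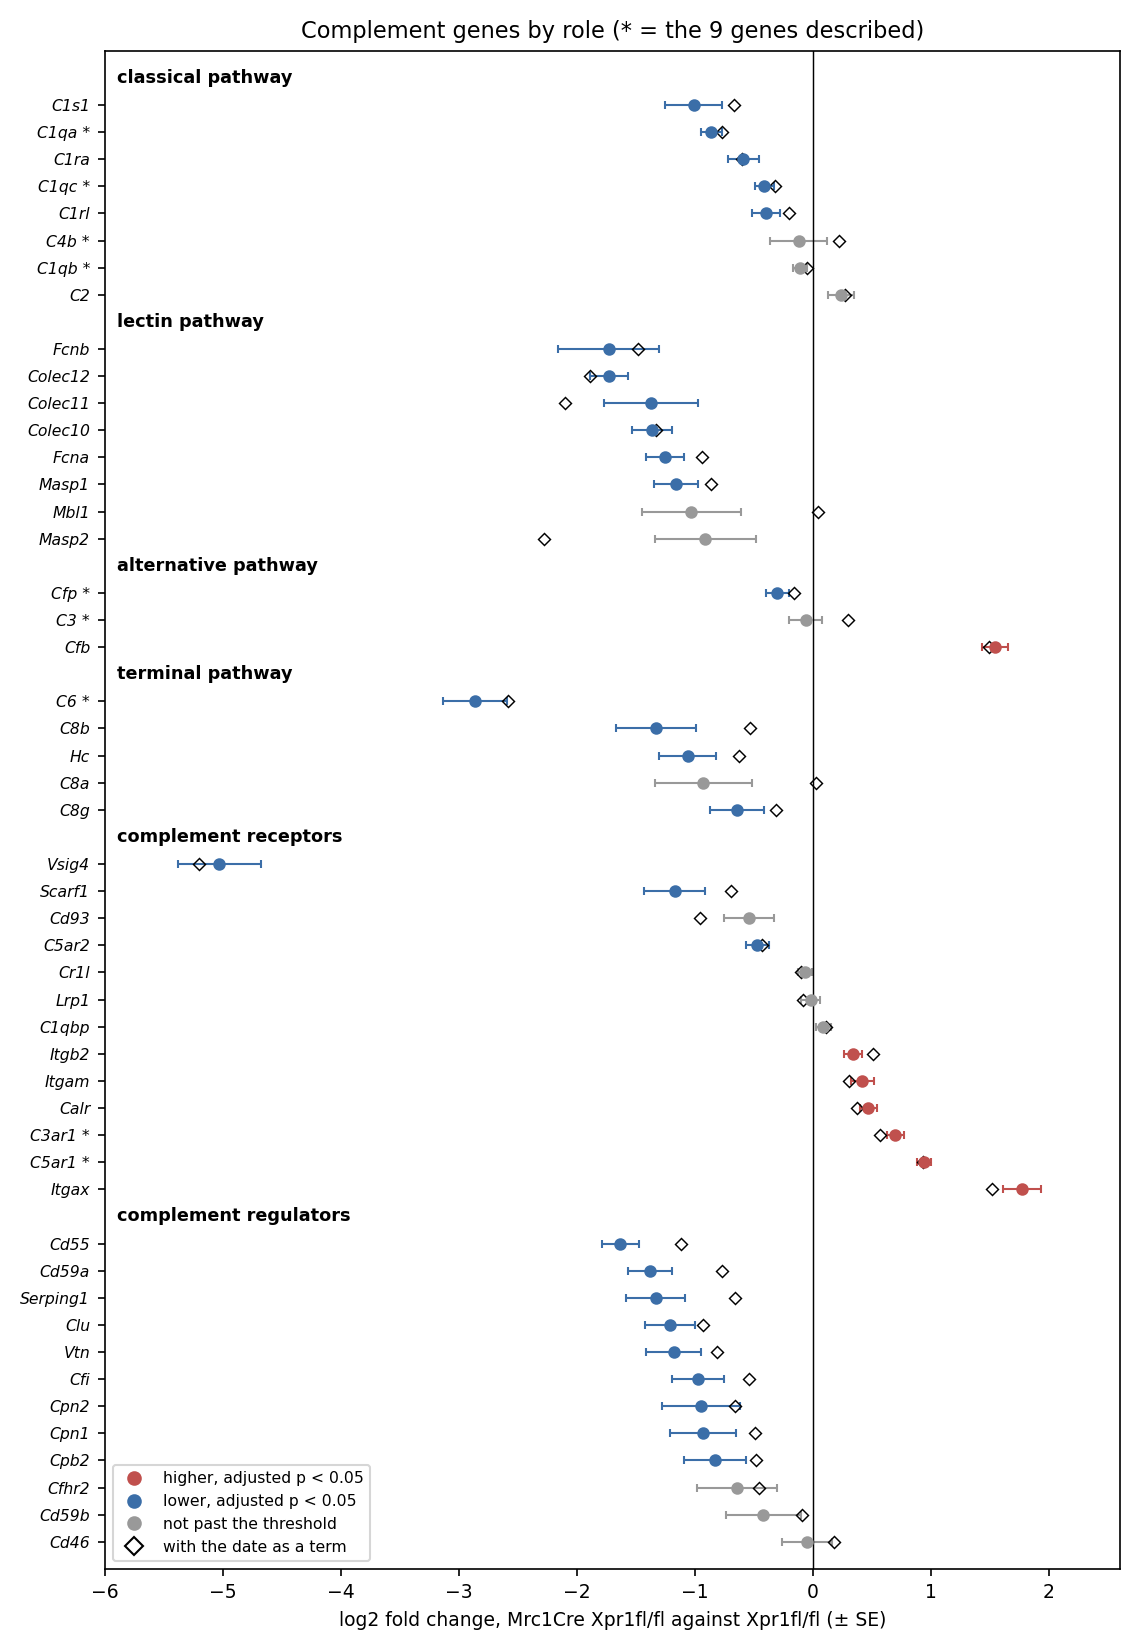
Log2FCs of Mrc1Cre Xpr1fl/fl against Xpr1fl/fl samples (horizontal axis) for the complement genes reported here, grouped by role, with bars for the SE, red for higher, blue for lower and grey for not past the threshold, and open diamonds for the date-adjusted fit. *Vsig4* and *C6* lie farthest to the left, and *Itgax*, *Cfb*, *C5ar1* and *C3ar1* farthest to the right.

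In the alternative pathway, *Cfb* encodes factor B, the protease of its C3-cleaving enzyme. It had 2386, 3322.6, 2599.3, 2675.5 and 2432.8 normalized counts in Mrc1Cre Xpr1fl/fl samples 1 to 5 and 858.2, 924.9, 813 and 1090.8 in controls 1 to 4. The means were 2.91 times apart without overlap, with a log2FC of 1.54 (SE 0.11, adjusted p = 5.94e-06) and 1.49 after date adjustment (adjusted p = 0.00123). The related protease gene *C2*, of the classical pathway, had a log2FC of 0.24 that did not pass (adjusted p = 0.0879). The ratio of *Cfb* to *C2* was 1.05 to 1.48 in Mrc1Cre Xpr1fl/fl samples and 0.382 to 0.576 in controls. Exons of both genes are also part of the transcripts of *Gm20547*, which had 137.3 ± 20.3 (SD, n = 5) and 87.3 ± 27.3 (SD, n = 4) normalized counts, so that some reads could be assigned to either.

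In the lectin pathway 6 of 8 genes tested were lower and 0 higher, where 21.6% and 21.5% of all genes were. After date adjustment 4 were lower, where 4.54% of all genes were, namely *Colec10*, *Colec12*, *Colec11* (−2.10, adjusted p = 0.0423) and *Masp2* (−2.28, adjusted p = 0.0423), of which *Masp2* did not pass without that adjustment (−0.91, adjusted p = 0.107). Both *Masp2* and *Colec11* were low, at 4.3 to 29 and 10 to 63.5 normalized counts in the 9 samples. Mrc1Cre Xpr1fl/fl sample 5, on which the date-adjusted comparison rests, had the lowest *Masp2* of all, 4.3. *Fcna*, which encodes ficolin A, a sugar-binding starter of this pathway made by macrophages, had 12462.4, 12197.9, 14866.6, 17083.5 and 17275.6 normalized counts in Mrc1Cre Xpr1fl/fl samples 1 to 5 and 35637.2, 24481.3, 41568.5 and 40299.4 in controls 1 to 4. All Mrc1Cre Xpr1fl/fl samples lay below all controls (log2FC −1.25, SE 0.16, adjusted p = 0.00014), and the date-adjusted value was −0.94 (adjusted p = 0.0527). *Colec12*, a scavenger receptor of the collectin family, had 1156.9 to 1701.6 against 3851.1 to 6200.6 normalized counts, with a log2FC of −1.73 (adjusted p = 2.16e-05) that passed after date adjustment (−1.89, adjusted p = 0.00123). *Colec10* (−1.36), *Masp1* (−1.16) and *Fcnb* (−1.73) were lower, at 49.2 to 840.6 normalized counts in the 9 samples, and of these *Colec10* passed after date adjustment (−1.33, adjusted p = 0.0331). *Fcnb*, a ficolin of neutrophils and monocytes, overlapped between the genotypes, since control 4 had 135.4 normalized counts and Mrc1Cre Xpr1fl/fl sample 5 had 185.4.

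In the rest of the classical pathway the proteases that bind C1q, *C1ra* and *C1s1*, were lower (log2FCs −0.59 and −1.01), as was *C1rl* (−0.40). None of these 3 passed after date adjustment (adjusted p = 0.122, 0.253 and 0.607). Of the terminal genes besides *C6*, *Hc*, *C8b* and *C8g* were lower (−1.06, −1.33 and −0.64) and *C8a* did not pass (−0.93, adjusted p = 0.0889). These 4 genes had at most 320.3 normalized counts in any sample, and their date-adjusted log2FCs of −0.63, −0.53, −0.31 and 0.03 did not pass.

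Of 13 regulators of complement tested, 10 were lower and 0 higher, where 21.6% and 21.5% of all genes were, and after date adjustment 2 were lower, where 4.54% of all genes were. *Cd55*, which encodes decay-accelerating factor on the cell surface, had 598.4, 469.7, 588.7, 741.6 and 860.5 normalized counts in Mrc1Cre Xpr1fl/fl samples 1 to 5 and 1729.8, 1719.1, 2194.9 and 2327.6 in controls 1 to 4. Every Mrc1Cre Xpr1fl/fl sample lay below every control. The log2FC was −1.63 (SE 0.16, adjusted p = 3.52e-05), and −1.12 after date adjustment (adjusted p = 0.0153). *Cd59a*, which encodes an inhibitor of the membrane attack complex on the cell surface, had a log2FC of −1.38 (adjusted p = 0.000253), and −0.77 after date adjustment (adjusted p = 0.107). Erythroid cells carry both proteins on their surface, and all 14 erythroid genes tested were lower as well, with a median log2FC of −1.81, 4 of them also after date adjustment. The part of erythroid transcripts in these falls was not tested. *Cd46* had −0.05 (adjusted p = 0.871). The secreted *Vtn*, *Cfi*, *Clu*, *Serping1*, *Cpn1* and *Cpb2* had log2FCs of −1.18, −0.97, −1.21, −1.33, −0.93 and −0.83, and none of these 6 passed after date adjustment.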

How the data were processed

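Sequencing libraries were made from 45 ng of total RNA per sample with a stranded mRNA kit. Per the study's methods, the authors quantified reads with salmon against GRCm39, summarized them per gene with tximport and normalized them with DESeq2; strand settings, tool versions and the filter on genes are not given in the sources used here. The deposited values are these DESeq2-normalized counts (a signal per gene) and are not whole reads. Within a sample, 26.2% to 49.7% of the values under 10 lay within 0.05 of a whole multiple of a common step. That step was the best of many tried, so the 10% that chance gives for a fixed step is no reference. Most of these values lay off the whole multiples, so reads could not be recovered and no count test was run.

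Here, log2(normalized count + 1) was fitted with limma 3.58.1 (lmFit, eBayes with trend) in R 4.3.3 over 13594 genes that reached 10 normalized counts in 4 samples or more, 5 Mrc1Cre Xpr1fl/fl against 4 Xpr1fl/fl. Fold changes are on this log2 scale and understate those of low genes. P-values were adjusted by Benjamini-Hochberg, with a threshold of 0.05. The script was tested on simulated data. Symbols, positions and transcript lengths came from GENCODE on GRCm39, by Ensembl identifier. Ratios between genes, levels per kilobase and profile differences were computed with Python 3.11.15 and pandas 2.3.3.

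The 9 genes, the wider complement list and the marker lists were chosen with earlier results of these data known. Genes named beyond the 9 were wider complement genes past the threshold whose mean reached 50 normalized counts, *Xpr1*, *Mrc1*, abundant or defining markers, and the 3 nearest profiles to the C1q mean, *C6* and *C5ar1*. *C2*, *C8a*, *C8b*, *C8g*, *Cd46*, *Cd93*, *Cr1l*, *C1qbp*, *Lrp1*, *Colec11*, *Masp2* and *Gm20547* were named after their values were seen. Alternatives were other scalings, quantile normalization, another pseudocount and filter, limma without trend or robust, the date or the replicate number as a term, and leaving out each sample. 1 gene of the wider list is counted in the totals but not reported here by name.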

Additional observations from a re-analysis of the deposited data

Results flagged for a closer look

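In 5 of 74 groups of 4 or 5 samples, taken in both genotypes over the 9 genes, the other complement genes past the threshold whose mean reached 50 normalized counts, *Xpr1* and *Mrc1*, 1 sample stood apart from the others by Dixon's criterion, where chance would give 3.7 at 1 in 20. Xpr1fl/fl sample 2 was low for *C1qa*, with 27854.3 normalized counts where the other controls had 36135.8 to 37095.7. The same sample was low for *Cfp*, with 23759.3 where the others had 30369.1 to 30915.3. Xpr1fl/fl sample 4, which had the most *Alb*, was high for *Cfi*, with 339.3 where the others had 160.1 to 179.7. Mrc1Cre Xpr1fl/fl sample 5 was high for *Serping1*, with 44.1 where the others had 25.1 to 30.5, and Mrc1Cre Xpr1fl/fl sample 2 was low for *Clu*, with 39.2 where the others had 68.6 to 79.9.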

How the results depend on the processing

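*C1qa*, *C6*, *C3ar1* and *C5ar1* kept their direction and passed the threshold under all alternatives run. Leaving out 1 sample at a time, log2 fold changes ranged from −0.96 to −0.82 for *C1qa*, −0.17 to −0.07 for *C1qb*, −0.51 to −0.36 for *C1qc*, −0.16 to 0.07 for *C3*, −0.37 to 0.06 for *C4b*, −3.05 to −2.68 for *C6*, −0.40 to −0.25 for *Cfp*, 0.65 to 0.74 for *C3ar1* and 0.89 to 0.98 for *C5ar1*. *C3* turned to 0.07 without Xpr1fl/fl sample 3, and *C4b* to 0.02 and 0.06 without Xpr1fl/fl samples 2 and 4. *C1qb* passed after scaling to the 75th percentile (−0.19) and without Xpr1fl/fl sample 2 (−0.17). That scaling moved the median log2 fold change of all genes to −0.07, and the share of calls that were higher from 49.9% to 35.0%. *Cfp* did not pass without the trend (−0.30, limma adjusted p = 0.063), and *C4b* was at 0.17 after quantile normalization. That normalization gave 22 lower and 7 higher of all 50 complement genes, against 29 and 7 in the main fit. *C1s1* (−0.62, limma adjusted p = 0.0552) and *C1rl* (−0.22, limma adjusted p = 0.116) were among those that did not pass under it. With the date as a term, *C1qc* (−0.32) and *Cfp* (−0.16) did not pass, *C3* was at 0.30 and *C4b* at 0.22, 2 of the 9 genes and 9 of all 50 complement genes were lower, and 577 and 617 of all genes were higher and lower. Scaling to the geometric mean of *Adgre1*, *Csf1r*, *Cd68*, *Mertk* and *Fcgr1*, chosen after the data were seen, gave 1802 higher and 2903 lower genes with a median of −0.04 and changed no call of the 9 genes. Leaving out samples gave 3 to 5 lower and 2 higher genes of the 9, 23 to 29 lower and 7 to 8 higher of the 50, and 2324 to 3031 lower and 2491 to 3050 higher of all genes. Beyond the 9, 28 genes were followed under all alternatives. They were the wider complement genes past the threshold whose mean reached 50 normalized counts, *Xpr1* and *Mrc1*. Of these 28, 0 changed direction, and 18 did not pass with the date as a term. *C8a* and *Cd46*, named above but not among the 28, turned from −0.93 to 0.03 and from −0.05 to 0.18 with that term. *C1rl* did not pass without Xpr1fl/fl sample 3 or 4 (limma adjusted p = 0.0692 and 0.0501), *Cpn1* without Xpr1fl/fl sample 4 (0.0554), and *Cpb2* without Mrc1Cre Xpr1fl/fl sample 4 or Xpr1fl/fl sample 4 (0.0507 and 0.061). The cause of these changes was not tested.

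Replicate numbers did not pair the samples. Deviations of same-numbered samples correlated at −0.0333, 0.147, −0.0113 and −0.0313, and 1 of 4 pairs correlated best with its own number. With the replicate block, *C1qa* was at −0.87, *C6* at −2.91 and *C5ar1* at 0.95, no call of the 9 genes changed, and 3146 genes were higher and 3080 lower.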
